A study of Homo sapiens with 6 samples.

Results

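The 10 transcription factors GATA1, GATA2, TAL1, LMO2, LYL1, KLF1, NFE2, RUNX1, GFI1B and ZFPM1 of the red cell and platelet lineages were followed on the arrays. Their probe sets, the groups of oligonucleotides that each report 1 transcript, were taken by gene symbol, and a probe set counted as a member when the platform annotation gave it a single symbol and that symbol was 1 of the 10. This gave 18 of the 54613 probe sets of the array, which covered 9 of the 10 genes. RUNX1 had 0 such probe sets, because its 13 probe sets are each annotated to 3 symbols, and it carries no value here.

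The cells were K562, a human erythroleukemia line derived from chronic myeloid leukemia, stably transfected with the doxycycline-inducible construct pTRE-ERG, which carries the ETS factor ERG. Clones CL4, CL9 and CL46 were each grown with 1 µg/ml doxycycline (DOX) for 8 days by the labels (a legend of the study gives a shorter time), labelled ERG-induced, and without DOX, labelled non-induced, so that each group held 3 arrays and each clone 1 array per group. Both groups carry the construct. Each line is 1 clone, and every induced culture and no other received DOX, so that effects of ERG and of DOX cannot be told apart, and the spread measured is that between clones. ERG itself had log2 differences of -1.35, -0.80 and -0.14 in CL4, CL9 and CL46 (mean -0.76, SE 0.63, adjusted p = 0.671). The sign was opposite to the labels in each clone, but the mean was not distinguished from 0. The ERG probe sets were not placed relative to the introduced sequence, so they check no label, and each array is called by what its label says.

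GATA factors bind the same short DNA word, and GATA2 of progenitors gives way to GATA1 as red cell precursors mature. GATA1 works with its cofactor ZFPM1 (FOG1) and in a larger complex in which LMO2 bridges it to TAL1, a basic helix-loop-helix factor. KLF1 drives the globin and membrane genes of red cells, NFE2 acts late in both lineages, and GFI1B is a repressor needed in both. K562 cells can be driven toward either lineage.

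The deposited values are linear ratios to a probe set's own median across the 6 arrays, so that 1 is the middle of the arrays and levels of different genes cannot be compared. For the same reason the presence of erythroid markers in K562 could not be checked as a level. Ratios were turned to log2, averaged over the probe sets of a gene, and compared with limma, a linear model with pooled variance, over all 19775 genes and separately over all 54613 probe sets. A feature was called when its groups differed at least 2-fold with an unadjusted p under 0.05, the limits the study used. Array medians ran from 0.898 to 0.999 in ERG-induced and from 0.990 to 1.07 in non-induced arrays. Control probe sets for ribosomal RNA, a sign of RNA quality, were higher in the induced arrays (log2 differences 1.21, 0.59 and 0.82 for CL4, CL9 and CL46), and their part in the results below was not tested.

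Of the 9 genes, 8 had a higher mean in the arrays labelled ERG-induced and 1, ZFPM1, a lower one, and every difference was below a fold of 2. The log2 differences ran from -0.52 to 0.72 with a median of 0.40, against a median of -0.03 over all genes. At the study's thresholds 0 of the 9 genes were called higher and 0 lower, where 3.12% and 6.32% of all genes were. At an unadjusted p under 0.05 without the fold, LYL1 and KLF1 were higher, 2 of 9 genes where 4% of all genes were higher, and 0 of 9 were lower where 8.86% of all genes were. The lowest adjusted p among the 9 was 0.350 (limma, Benjamini-Hochberg over all genes), that of KLF1. In the same fit 0 of all 19775 genes had an adjusted p under 0.05, and the lowest was 0.101. Over probe sets 0 of 54613 had one, and the lowest was 0.086. Every call named below therefore rests on an unadjusted p. In LYL1, KLF1, NFE2 and GFI1B, every induced array lay above every non-induced array, 4 of 9 genes where 7.98% of all genes did so. The difference was above 0 in all 3 clones in these 4 and in LMO2, 5 of 9 genes against 17.8% of all genes.

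**Figure D1:**
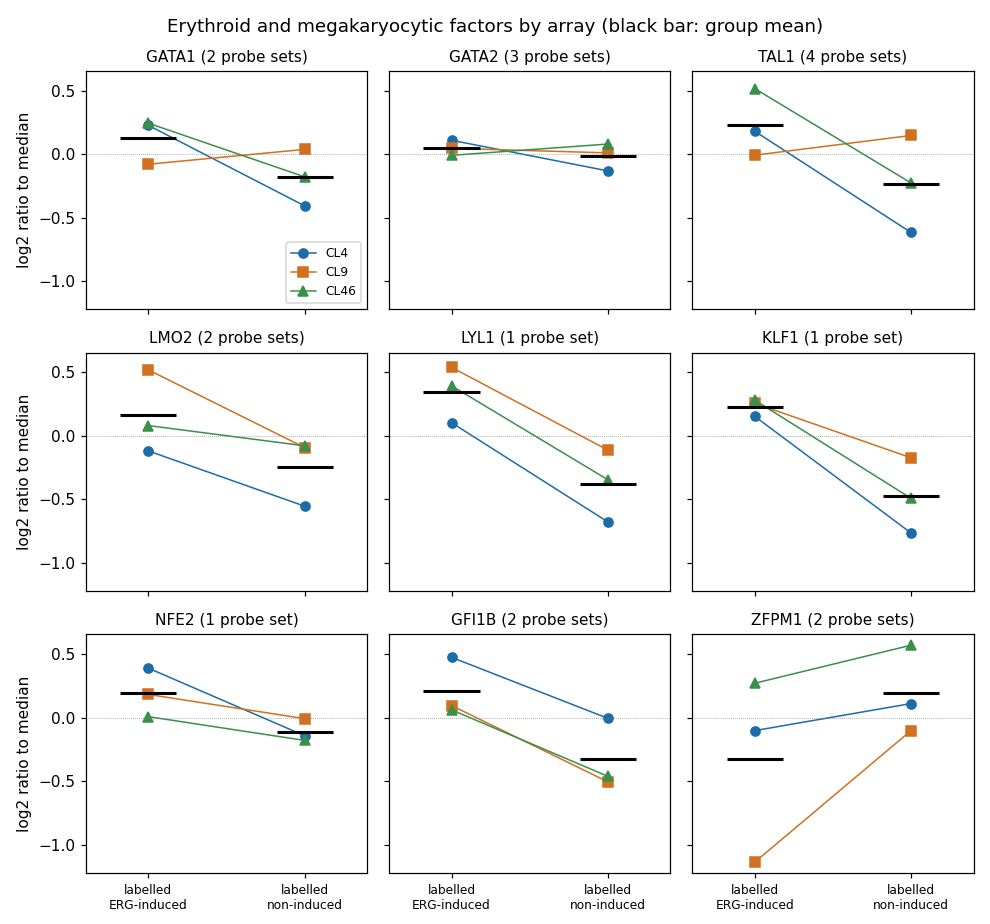
Log2 ratio to the probe set median (vertical axis) of the 9 factors in the arrays labelled ERG-induced (left in each panel) and non-induced (right). Lines join the arrays of a clone and black bars are group means over 3 arrays. The groups do not overlap in LYL1, KLF1, NFE2 and GFI1B, while the line of CL9 runs the other way in GATA1 and TAL1.

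LYL1, a basic helix-loop-helix factor closely related to TAL1, showed the largest difference of the 9. Its single probe set had ratios of 1.07, 1.45 and 1.31 in the ERG-induced arrays of CL4, CL9 and CL46, against 0.625, 0.925 and 0.787 in the non-induced arrays. The difference was nearly the same in each clone, 0.78, 0.65 and 0.74 on the log2 scale, although the clones themselves were ordered CL4, CL46, CL9 from low to high in both groups. It came to 1.65-fold (log2 difference 0.72, SE 0.28, 95% interval 0.04 to 1.4, adjusted p = 0.362), and 14.2% of all genes had a difference as large or larger. In the fit over probe sets the interval was wider and reached 0 (-0.01 to 1.46, adjusted p = 0.391).

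KLF1, an activator of globin and red cell membrane genes, had ratios of 1.11, 1.19 and 1.22 in the ERG-induced arrays and 0.589, 0.887 and 0.711 in the non-induced arrays (CL4, CL9 and CL46). The induced arrays were close together, with an SD of 0.07 on the log2 scale, and the non-induced arrays were spread more widely, with an SD of 0.30. The difference was 1.63-fold (log2 difference 0.71, SE 0.26, 95% interval 0.07 to 1.35), with 0.92 in CL4, 0.43 in CL9 and 0.77 in CL46. With the clone as a paired block, KLF1 did not pass an unadjusted p of 0.05 (the lowest adjusted p of the 9 genes was then 0.367), while LYL1 did. Without CL4, CL9 or CL46 neither gene passed it, with values of 0.60, 0.85 and 0.67 for KLF1 and of 0.70, 0.76 and 0.72 for LYL1.

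TAL1, the partner of LMO2 in the complex, was measured by 4 probe sets with unlike differences. Probe set 206283_s_at had ratios of 1.31, 1.19 and 1.34 in the ERG-induced arrays, against 0.801, 0.596 and 0.815 in the non-induced arrays of CL4, CL9 and CL46. Its groups were apart and its clones gave 0.71, 0.99 and 0.72, a mean of 0.81 or 1.75-fold (SE 0.27, 95% interval 0.13 to 1.49, adjusted p = 0.313). Probe set 216925_s_at also kept the groups apart (1.84, 1.09 and 1.02 in the induced arrays, 0.778, 0.980 and 0.806 in the non-induced arrays), but its difference of 0.57 rested mostly on CL4, with 1.24 there, 0.15 in CL9 and 0.34 in CL46, and was 0.24 without CL4. Probe set 1561651_s_at gave -0.19, 0.29 and 1.11 in the 3 clones. Probe set 216928_at ranged from 0.532 to 1.85 in the induced and from 0.346 to 2.21 in the non-induced arrays, with clone differences of 1.44, -2.05 and 0.80. Over the 4 probe sets the ratio of TAL1 was 1.13, 0.994 and 1.43 in the induced and 0.652, 1.11 and 0.854 in the non-induced arrays, a log2 difference of 0.46 (SE 0.31, 95% interval -0.30 to 1.22, adjusted p = 0.599). This mean was 0.77 without CL9, the clone in which 216928_at was lower, and 0.29 without CL4 and 0.32 without CL46.

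The stretches before the start sites of these 3 genes are shown as examples. Each lies before a gene whose measured RNA was higher in a probe set above, and each holds the word that GATA factors bind. They are the 120 bases that end at the base before the annotated start (for TAL1 the outermost of 2 starts), from RefSeq on GRCh38.p14: KLF1 at chr19:12887202-12887321, LYL1 at chr19:13102859-13102978 and TAL1 at chr1:47232336-47232455, all on the minus strand and written 5′ to 3′ in the direction of the gene. Capitals mark AGATAA or TGATAA or AGATAG or TGATAG on either strand.
KLF1: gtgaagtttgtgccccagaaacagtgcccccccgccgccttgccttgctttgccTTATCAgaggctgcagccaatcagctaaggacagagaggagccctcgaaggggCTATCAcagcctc
LYL1: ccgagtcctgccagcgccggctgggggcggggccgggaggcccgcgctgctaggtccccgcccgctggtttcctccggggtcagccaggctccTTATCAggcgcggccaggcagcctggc
TAL1: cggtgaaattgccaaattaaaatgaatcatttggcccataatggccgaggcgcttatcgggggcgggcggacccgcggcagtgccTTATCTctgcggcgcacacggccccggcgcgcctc
Of the 10 genes, 8 had an entry in the table of promoters, with 11 starts in all. In the 250 bases before a start, 4 of the 8 held a GATA word, KLF1 with 2, and LYL1, TAL1 and GFI1B with 1 each, against 26.2% of the 27305 genes in the table. GFI1B, whose probe sets were also higher, is not printed, and the other start of TAL1 had no GATA word. An ETS word (CCGGAA or AGGAAG on either strand), the kind ERG binds, stood before a start of GATA1, TAL1, RUNX1 and GFI1B, 4 of 8 against 44.1% of all genes. A match is a description of the letters and not a bound site.

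LMO2, the bridging LIM protein, was higher in all 3 clones in the mean of its 2 probe sets, but the groups overlapped. Its ratio was 0.921, 1.43 and 1.06 in the ERG-induced and 0.681, 0.938 and 0.947 in the non-induced arrays, with clone differences of 0.44, 0.61 and 0.16. The log2 difference was 0.40 (SE 0.30, 95% interval -0.33 to 1.13, adjusted p = 0.631). The probe sets differed in size. In 204249_s_at the groups were apart, at 1.12, 1.61 and 1.14 in the induced against 0.737, 0.857 and 0.883 in the non-induced arrays, a difference of 0.62 (SE 0.29). In 231049_at they overlapped, with a difference of 0.18 (SE 0.36).

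GFI1B, the repressor, gave the most even answer across clones together with LYL1. Its ratio was 1.39, 1.07 and 1.04 in the ERG-induced arrays and 0.996, 0.705 and 0.726 in the non-induced arrays of CL4, CL9 and CL46, and CL4 stood highest in both groups. The clone differences were 0.48, 0.60 and 0.52, with an SD of 0.06, and their mean was 0.53 or 1.45-fold (SE 0.28, 95% interval -0.14 to 1.21, adjusted p = 0.483). Both of its probe sets were higher in all 3 clones, by 0.42 in 208501_at, whose groups overlapped, and by 0.65 in 237403_at, whose groups did not.

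NFE2, which pairs with small MAF proteins on late erythroid and platelet genes, had ratios of 1.31, 1.13 and 1.01 in the ERG-induced arrays and 0.906, 0.995 and 0.883 in the non-induced arrays. The lowest induced array, CL46, lay just above the highest non-induced array, CL9. Its log2 difference was 0.30 (SE 0.24, 95% interval -0.28 to 0.89, adjusted p = 0.654), with 0.53 in CL4 and 0.19 in each of the other clones.

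GATA1, the central activator of both lineages, was higher in CL4 and CL46 and not in CL9. Its ratio over 2 probe sets was 1.17, 0.946 and 1.18 in the ERG-induced arrays and 0.754, 1.03 and 0.883 in the non-induced arrays of CL4, CL9 and CL46. The clone differences of 0.63, -0.12 and 0.42 average 0.31 or 1.24-fold (SE 0.26, 95% interval -0.32 to 0.94, adjusted p = 0.668). Probe sets 1555590_a_at and 210446_at gave the same pattern of signs, with means of 0.23 and 0.40, and the value for the gene was 0.53 without CL9 and 0.15 without CL4.

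GATA2, the progenitor factor, had the smallest difference of the 9. Its ratio over 3 probe sets was 1.08, 1.03 and 0.993 in the ERG-induced arrays and 0.912, 1.01 and 1.06 in the non-induced arrays. The log2 difference was 0.06 (SE 0.22, 95% interval -0.49 to 0.61, adjusted p = 0.941), and it was -0.03 without CL4. Its probe sets gave 0.16 (207954_at), 0.05 (209710_at) and -0.03 (210358_x_at), the last of a kind whose oligonucleotides may bind related transcripts. In folds the interval ran from 0.713 to 1.53, so that with 3 arrays against 3 a difference anywhere within it remained possible.

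The difference between GATA1 and GATA2 within an array, a comparison chosen after the values were seen, was 0.12, -0.13 and 0.25 on the log2 scale in the ERG-induced arrays and -0.28, 0.03 and -0.26 in the non-induced arrays. It shifted by 0.39 in CL4, -0.15 in CL9 and 0.51 in CL46, a mean of 0.25. An exact permutation test of 3 arrays against 3, which leaves out the clone pairing, gave a two-sided p = 0.2. The smallest possible is 0.1, and adjusted over 2 such pairs the permutation test gave p = 0.4. The same difference for TAL1 minus LYL1 shifted by 0.02, -0.81 and 0.00, a mean of -0.26 (the same exact permutation test, two-sided p = 0.5, adjusted p = 0.5). The TAL1 mean in CL9 includes 216928_at, with a clone difference of -2.05 there. The other TAL1 probe sets, 1561651_s_at, 206283_s_at and 216925_s_at, gave 0.29, 0.99 and 0.15 in CL9.

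ZFPM1, the GATA1 cofactor, was the only gene of the 9 with a lower mean in the induced arrays. Its ratio was 0.932, 0.454 and 1.21 in the ERG-induced and 1.08, 0.932 and 1.48 in the non-induced arrays of CL4, CL9 and CL46, lower in every clone but with overlapping groups. The log2 difference was -0.52 (SE 0.44, 95% interval -1.60 to 0.57, adjusted p = 0.683), and -0.26 without CL9. The 2 probe sets had means of opposite sign. In 237463_at the ratio was 0.880, 0.210 and 1.05 in the induced and 1.02, 0.984 and 2.17 in the non-induced arrays, a difference of -1.16 (SE 0.74) that was -0.63 without CL9. In 242282_at the difference was 0.13 (SE 0.29), with -0.22, 0.16 and 0.45 in the clones.

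**Figure D2:**
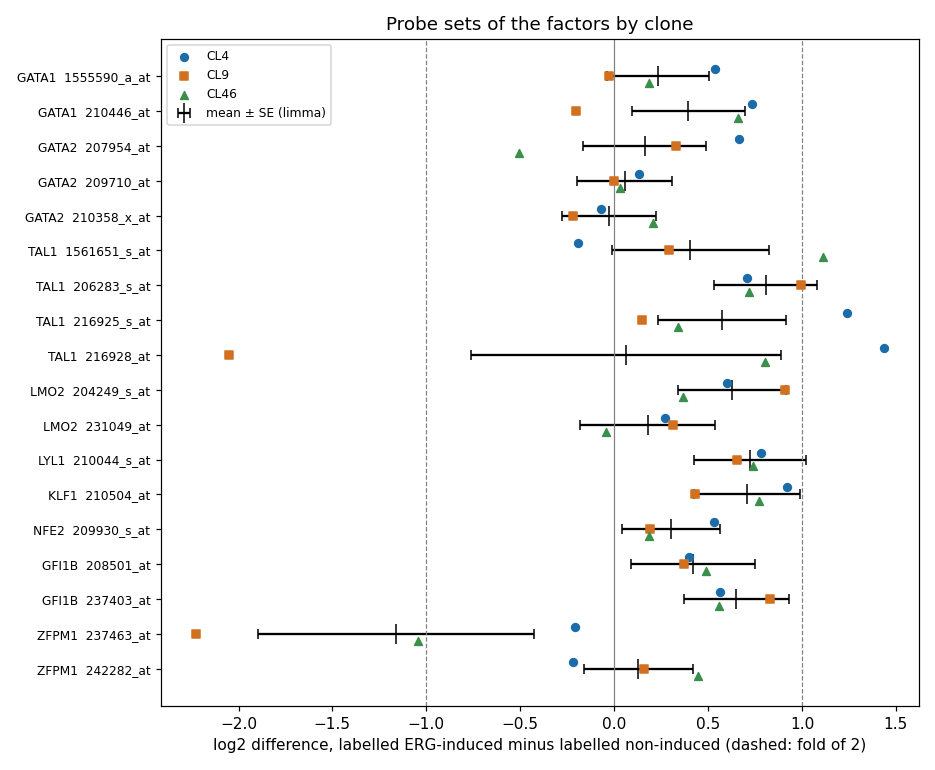
Log2 difference, labelled ERG-induced minus labelled non-induced (horizontal axis), of the 18 probe sets. Symbols are the clones, black bars the mean ± SE of the limma fit, and dashed lines a fold of 2. All 3 clones of LYL1, KLF1, NFE2, both GFI1B probe sets, 206283_s_at and 216925_s_at of TAL1, 204249_s_at of LMO2 and 209710_at of GATA2 lie at or to the right of 0, and the widest spread is that of 216928_at of TAL1, from -2.05 to 1.44.

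Counted over probe sets, 0 of 18 were called higher and 0 lower, where 2.82% and 8.16% of all probe sets were. At an unadjusted p under 0.05 without the fold, 206283_s_at of TAL1 and 210504_at of KLF1 were higher, 2 of 18 where 3.24% of all probe sets were, and 0 were lower where 9.91% were. The count of 2 was 0 without CL4, CL9 or CL46 and 1 with the clone as a block, where 210504_at was lost, and it was 4 with each array centred and 5 after quantile normalization. In 7 of 18 every induced array lay above every non-induced array, against 7.14% of all probe sets. Probe sets of a gene share its transcript, so these counts are not over independent measurements.

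The clones contributed unequally. CL4 gave a median difference of 0.53 over the 9 genes, CL9 one of 0.19 and CL46 one of 0.42, where the medians of all genes were -0.04, -0.06 and -0.04, and 8, 6 and 7 of the 9 genes were above 0, against 48.2%, 47.4% and 48.2% of all genes. The non-induced array of CL4 was the lowest of the 6 arrays for GATA1, GATA2, TAL1, LMO2, LYL1 and KLF1, 6 of 9 genes against 17.8% of all genes. The highest array of a gene was an induced one in 8 of 9, with ZFPM1, highest in the non-induced array of CL46, as the exception. Of all genes, 15% were highest in the induced array of CL4, 14% in that of CL9 and 20.5% in that of CL46. Without CL4 the median of the 9 was 0.29, without CL9 0.50 and without CL46 0.36.

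**Figure D3:**
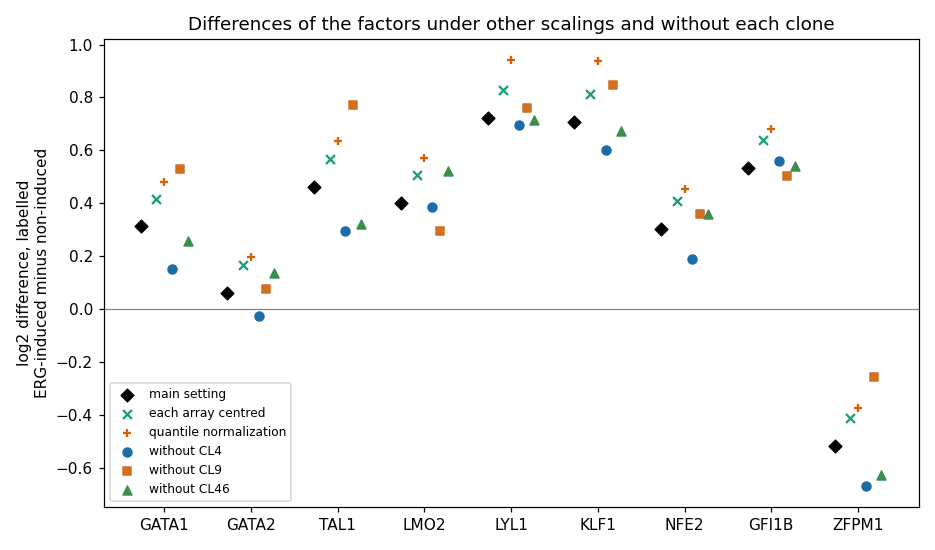
Log2 difference, labelled ERG-induced minus labelled non-induced (vertical axis), of each of the 9 genes in the main setting, with each array centred on its median, after quantile normalization, and without each clone. Both scalings move the values up, LYL1 to 0.94 and KLF1 to 0.94 after quantile normalization, and GATA2 is the gene whose sign changes, to -0.03 without CL4.

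Genes most like KLF1 and LYL1 were taken by the root mean square difference of their log2 ratios over the 6 arrays. For KLF1 these were EBPL (0.0754), NME4 (0.0837) and SCD (0.0902), and for LYL1 PSME1 (0.0586), ERMP1 (0.0840) and GDE1 (0.0903). Within 0.2 of the member lay 139 genes for KLF1 and 135 for LYL1, so that these profiles are shared by many genes of the array.

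Among 30 partner proteins of these factors, 29 were measured, of which 0 were called higher and 3 lower (10.3%), with a median of 0.01, where 3.12% of all genes were called higher and 6.32% lower. TCF12 and TCF4, E proteins that pair with TAL1 and LYL1, were lower. TCF3, another E protein of the list, named after its value was seen, was not called. It differed by 0.32 (SE 0.25) and was above 0 in all 3 clones. TCF12 gave -1.22, -1.71 and -2.68 in the 3 clones, to 0.274 of its non-induced value (log2 difference -1.87, SE 0.35, adjusted p = 0.192). TCF4 differed by -1.11 (SE 0.28, adjusted p = 0.244), and by -0.97 after quantile normalization, short of the fold. HDAC2, a histone deacetylase of repressor complexes, differed by -1.52 (adjusted p = 0.381, groups overlapping) and was not called without CL9 (-1.30) or CL46 (-1.18), with each array centred (-1.42) or after quantile normalization (-1.32). LDB1, the protein that LMO2 binds in the complex, differed by 0.35 (adjusted p = 0.602), and CBFB, the partner of RUNX1, by -0.50 (adjusted p = 0.563), both named after their values were seen.

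Of 31 relatives from the factors' own families, all measured, GATA3 alone was called, 2.53-fold higher (log2 difference 1.34, SE 0.47, adjusted p = 0.338), and the list had a median of 0.18. This is 3.23% of the list, near the 3.12% of all genes called higher. GATA3, the GATA factor of T cells, gave 1.82, 1.18 and 1.01 in the clones, and the call was lost without CL4 (1.1), CL9 (1.42) or CL46 (1.5). Of 28 other blood lineage factors measured, 1 was called higher (3.57%) and 2 lower (7.14%), both near the 3.12% and 6.32% of all genes, with a median of -0.16. EGR1, an immediate early factor, was lower in each clone, at -1.56, -2.41 and -2.34 (log2 difference -2.10, SE 0.38, adjusted p = 0.192). The B cell factors PAX5 (1.19) and EBF1 (-1.25) were not called without CL4 (1.04 and -0.85). PAX5 was also not called without CL46 (1.21), and EBF1 not without CL9 (-1.25) nor with the arrays centred (-1.14) or quantile normalized (-1.10).

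The measured products of the 2 lineages differed in the number called. Of 30 red cell products, such as membrane and skeleton proteins, 24 were measured, and these held no globin, glycophorin or heme synthesis gene. Of the 24, 0 were called in either direction, where 3.12% of all genes were called higher and 6.32% lower. The list had a median of 0.19 and a range from -1.05 to 0.82. At an unadjusted p under 0.05 without the fold, where 4% of all genes were higher, 1 of the 24 was, TRIM10, a ubiquitin ligase family gene, at 0.82 (SE 0.31, adjusted p = 0.360) from clone values of 1.27, 0.89 and 0.29. Of 30 platelet and megakaryocyte products, 28 were measured. Of these, 5 were called higher (17.9%, against 3.12% of all genes) and 1 lower (3.57%, against 6.32%). The list had a median of 0.83 and a range from -1.81 to 3.76, and 19 of the 28 were above 0, where 9540 of all 19775 genes were. The adhesion receptors SELP (log2 difference 3.76, SE 0.74, adjusted p = 0.192, and 2.93 without CL4) and GP1BA (2.38, SE 0.49, adjusted p = 0.2) were higher. So were the integrin subunit ITGB3 (1.23, SE 0.41, adjusted p = 0.321), the thromboxane synthase TBXAS1 (2.30, SE 0.75, adjusted p = 0.315) and the junction protein ESAM (1.37, SE 0.50, adjusted p = 0.349). The signalling adaptor LAT was lower (-1.81, SE 0.32, adjusted p = 0.192). ITGB3 was not called without CL9 (1.12) or CL46 (1.33), TBXAS1 not without CL4 (2.30) or CL9 (1.67), against 2.93 without CL46, and ESAM not without CL4 (0.88) or CL9 (1.35) nor with the clone as a block. The lists were chosen with earlier results of these data known, so their shares of called genes are not independent of those results. The difference between the 2 lists was not tested.

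**Figure D4:**
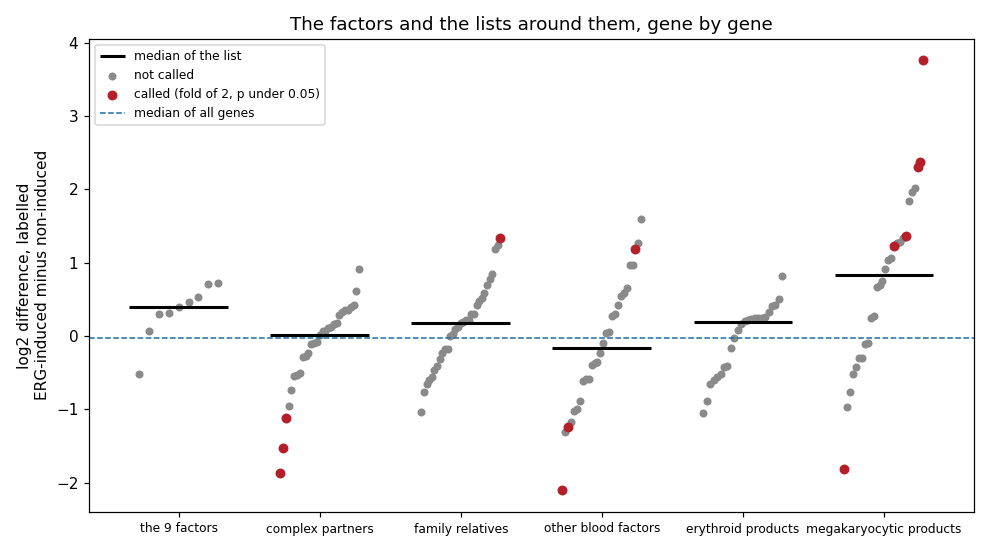
Log2 difference, labelled ERG-induced minus labelled non-induced (vertical axis), of every measured gene of the 9 factors and the 5 lists around them. Red points were called at the study's thresholds, black bars are list medians and the dashed line is the median of all genes. The factors lie between -0.52 and 0.72 without a call, and the platelet and megakaryocyte products run from -1.81 for LAT to 3.76 for SELP.

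Markers of other cell types were looked at in the same way, beside the 3.12% of all genes called higher and 6.32% called lower. Of 5 lymphoid genes measured, 0 were higher and 1, CD3D, was lower (-1.23). Of 6 granulocyte and monocyte genes 0 were called. Of 6 endothelial genes CDH5 was higher (3.01, and 1.95 without CL4), and of 6 stromal genes PDGFRA was higher (1.43) and COL1A1 lower (-1.09). CD3D and COL1A1 were not called with the arrays centred (-1.13 and -0.99) or quantile normalized (-1.01 and -0.95), CD3D not without CL9 (-1.08) or CL46 (-1.21), COL1A1 not without CL4 (-0.85) or CL9 (-1.11), and PDGFRA not without CL4 (1.37). The mean log2 ratio of the endothelial list was 0.77, -0.14 and 0.58 in the ERG-induced and -0.16, -0.46 and -0.35 in the non-induced arrays, that of the stromal list 0.08, -0.26 and 0.09 against -0.29, -0.40 and -0.66, that of the granulocyte and monocyte list 0.01, -0.06 and 0.64 against -0.07, -0.35 and 0.00, and that of the lymphoid list 0.24, -0.60 and -0.92 against -0.10, -0.37 and 0.02 (CL4, CL9 and CL46). Their part in the differences of the factors was not tested. Each culture was 1 clone of 1 cell line, so these genes do not count cells of other types. A changed share of cells with a transcript and a changed amount per cell cannot be told apart in bulk RNA.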

How the data were processed

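The authors measured RNA of each clone with and without DOX on Affymetrix U133 Plus arrays and processed it in GeneSpring. The deposited values are linear ratios to the probe set's median. Of 54675 probe sets, 50737 had a median of 1 (tolerance 1e-05) and 3938 a lower one. For background correction and scaling, the sources used here give nothing. Precision is limited by the number of arrays.

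The 62 control probe sets did not enter the fit. Of the others, 41091 carried 1 gene symbol, 1801 several and 11721 none. Value columns of no mapped sample numbered 0. Ratios were turned to log2 without a pseudocount, since all were above 0. limma 3.58.1 (R 4.3.3; lmFit and eBayes, no intensity trend, two-sided, Benjamini-Hochberg adjustment over all features) compared the groups, over probe sets and over gene means. The fit was tested on simulated data with independent noise and known changes placed only in probe sets of spread below the median. Recovery of changes in noisier probe sets and clone effects were not covered. The members, lists and tests were chosen with earlier results of these data known. The genes named are all 10 members, the called genes of each list, and the 3 genes nearest to each called member or, as none was called, to the members of the smallest p. Clone numbers pair the arrays of the same clone; the correlation of same-clone deviations across genes was 0.04, 0.05 and 0.03 in CL4, CL9 and CL46. Alternatives were the clone as a block, array centring, quantile normalization, no moderation, an added ratio of 0.1, filters on probe sets of low median or of a cross-hybridising kind, the median over probe sets, other thresholds and each clone left out. The threshold without a fold was added after the data were seen. Promoters came from RefSeq, GRCh38.p14.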

Additional observations from a re-analysis of the deposited data

How the results depend on the processing

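At a fold of 2 and an unadjusted p under 0.05, 0 member genes and 0 member probe sets were called in either direction under each alternative of scaling, block, moderation, filter or summary, and without each clone. At a fold of 1.5, or with no fold, 2 genes and 2 probe sets were higher and 0 lower. At an unadjusted p under 0.05 without a fold, the count of probe sets was 0 without any 1 clone, 1 with the replicate block, 3 without probe sets of low median, 4 with each array centred, and 5 after quantile normalization or without moderation. The lowest adjusted p among the 9 genes ran from 0.263 after quantile normalization to 0.681 without CL46. With the clone as a replicate block the log2 differences do not change by construction (KLF1 stays at 0.71), and KLF1 was the only gene to lose its unadjusted p under 0.05. LYL1 and KLF1 both lost it without any 1 clone, where fewer arrays are compared. The median of all genes was -0.03, against 0.08 with each array centred and 0.11 after quantile normalization, and that of the 9 genes was 0.40, against 0.51 and 0.57. Over all genes 617 were called higher and 1250 lower, against 749 and 999 with each array centred, 848 and 923 after quantile normalization, and 369 and 939 without moderation of the variances. The sign changed for GATA2 without CL4 (-0.026), for its probe set 207954_at without CL4 (-0.089, highest 0.49 without CL46) and for 210358_x_at with each array centred (0.076), after quantile normalization (0.094) and without CL9 (0.067, lowest -0.15 without CL46). It also changed for 216928_at of TAL1 without CL4 (-0.63) or CL46 (-0.31), against 1.12 without CL9, and for 242282_at of ZFPM1 without CL46 (-0.032), against 0.30 without CL4. The highest value for GATA2 with a clone left out was 0.14. The cause of these changes was not tested. Values hold no brightness, so signal over background limits each probe set to an unknown degree.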
